A study of Mus musculus with 28 samples.

Results

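The 10 genes described here encode the core of the mouse RNA interference machinery: the Argonautes Ago1 to Ago4, the nucleases Dicer1 and Drosha, the Drosha partner Dgcr8, and the scaffold proteins Tnrc6a, Tnrc6b and Tnrc6c. They were found by symbol, under a rule that uses no measured value, and are 10 of the 52636 genes counted. The study asked about SLIT1, a secreted guidance protein, in female stress susceptibility, per its title. RNA came from needle punches of the ventromedial prefrontal cortex, a region that regulates emotional responses. There were 4 groups of 7 individual female mice, and all mice had received a virus. One group carried the control virus Lac_Z without stress, another carried it with 3 days of the stress procedure abbreviated sCVS in the labels, and the other two carried the virus labelled as the Slit1 knockdown, without and with that stress. The strain, the age, the promoter of each virus, the cells it enters and the way it lowers its target were not given in the sources used here, and a punch holds infected and uninfected cells together. Nothing beyond separate mice ties the libraries to cages or litters, so p-values measure the spread between these libraries, each from its own mouse.

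MicroRNAs begin as hairpins in longer transcripts. In the nucleus Drosha, held by Dgcr8, cuts the hairpin free, and in the cytoplasm Dicer1 trims it to a short duplex. An Argonaute keeps one strand as a guide to messenger RNAs, and a Tnrc6 protein bound to the Argonaute recruits the enzymes that shorten the poly(A) tail and remove the cap. In neurons this pathway tunes messages for synaptic growth and excitability. Hairpins expressed from viral vectors pass through some or all of the same enzymes.

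The 4 Argonautes differ in whether they can cut a target. Their genes are shown at the last position of the catalytic site, a position where they differ, since the levels described next give the mix of the family. The other positions of the site were not compared. A histidine there is needed for cutting but is not sufficient on its own. Each 33-base stretch was read from the coding strand of a GENCODE M21 transcript (GRCm38), all on minus strands. Capitals mark the codon at that position, which is a histidine codon in Ago2 and Ago3 and an arginine codon in Ago1 and Ago4.
Ago1 (chr4:126439877-126439909, exon 18 of 19): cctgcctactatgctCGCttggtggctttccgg
Ago2 (chr15:73107200-73107232, exon 18 of 19): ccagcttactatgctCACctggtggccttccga
Ago3 (chr4:126346666-126346698, exon 18 of 19): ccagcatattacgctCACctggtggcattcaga
Ago4 (chr4:126496784-126496816, exon 17 of 18): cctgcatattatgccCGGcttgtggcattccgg

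Each library held between 30.6 M and 44.3 M counted fragments. No difference in Slit1 was resolved under the knockdown label: it measured 24.4 ± 16.1 CPM (counts scaled to TMM-normalised library size, mean ± SD, n = 7) in the LacZ unstressed group, 19.8 ± 10.2 in the LacZ stressed group, 25.9 ± 17.5 in the knockdown unstressed group and 18.2 ± 9.81 in the knockdown stressed group. The averaged log2 fold change of Slit1 was -0.02 ± 0.30 (SE), with an approximate 95% interval from -0.64 to 0.61, so "knockdown" below is the name of a label only. Of the fixed marker lists, each of the 9 had all its genes detected in some library, and cortical excitatory neuron markers summed to 418 to 1692 CPM. One library stood apart in bone and fibroblast markers (knockdown stressed replicate 2, 2326 CPM against at most 51.8 elsewhere), one in striatal neuron markers (knockdown stressed replicate 7, 220.0 CPM against at most 135.9) and one in T cell markers (LacZ stressed replicate 4, 0.838 CPM, the lowest). A further library, knockdown unstressed replicate 7, was highest in oligodendrocyte markers (1710 CPM against at most 1031 elsewhere), in astrocyte markers (4900.4 against at most 4503) and in the mitochondrial share of counts (14.2%). The first principal component held 58.8% of the variance between libraries, and libraries differed in a GC slope, the change in log2 CPM for each added 10 percentage points of transcript GC content, from -1.17 in knockdown unstressed replicate 7 to 1.21 in LacZ unstressed replicate 1. The slope was computed without the 10 members. In each group it tended to be higher in the replicates numbered first, and those numbers follow accession order. It ran from 0.54 to 1.21 in replicate 1 of the 4 groups and from -1.17 to -0.30 in replicate 7. There were exceptions, such as knockdown unstressed replicate 6 at 0.456. What that order reflects was not tested.

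All members but Dgcr8 were well measured, with a median of 737 (Ago4) to 10319 (Tnrc6b) counts per library. Counts cover whole gene spans, of which exons made up 5.37% in Drosha to 26.1% in Dicer1, so the levels include unspliced RNA. To compare genes, CPM was divided by the kilobases of span that no other gene overlaps. On that scale Tnrc6a stood highest at 3.09 ± 0.197 (SD, n = 28), followed by Dicer1 at 1.55 ± 0.0913, Tnrc6c at 1.46 ± 0.187, Ago3 at 1.27 ± 0.308, Tnrc6b at 1.14 ± 0.120, Ago1 at 1.09 ± 0.292, Ago2 at 0.822 ± 0.198, Drosha at 0.581 ± 0.108 and Ago4 at 0.423 ± 0.0535. Tnrc6a was above Dicer1 in 28 of 28 libraries, Ago1 above Ago2 in 27, Ago2 above Drosha in 28 and Drosha above Ago4 in 26. The middle of the order was not separated beyond the spread: Dicer1 was above Tnrc6c in 19 libraries, Tnrc6c above Ago3 in 20, Ago3 above Tnrc6b in 21 and Tnrc6b above Ago1 in 17. The place of Tnrc6a rests on 25.6 kb, because 64.1% of its span (chr7:123123885-123195296) lies under another annotated gene and was not counted for it. The order also depends on the length used, the whole counted span. Exons filled 24.2% of the span in Ago1, 15.8% in Ago2 and 5.37% in Drosha, and an order by exon length was not computed. In undivided CPM, means were 79.2 for Tnrc6a and 99.4 for Dicer1, and 36.5 for Ago1 and 71.7 for Ago2, the reverse order. Ago2, Drosha and Ago4 kept their order. The family shares below use the same lengths.

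**Figure D1:**
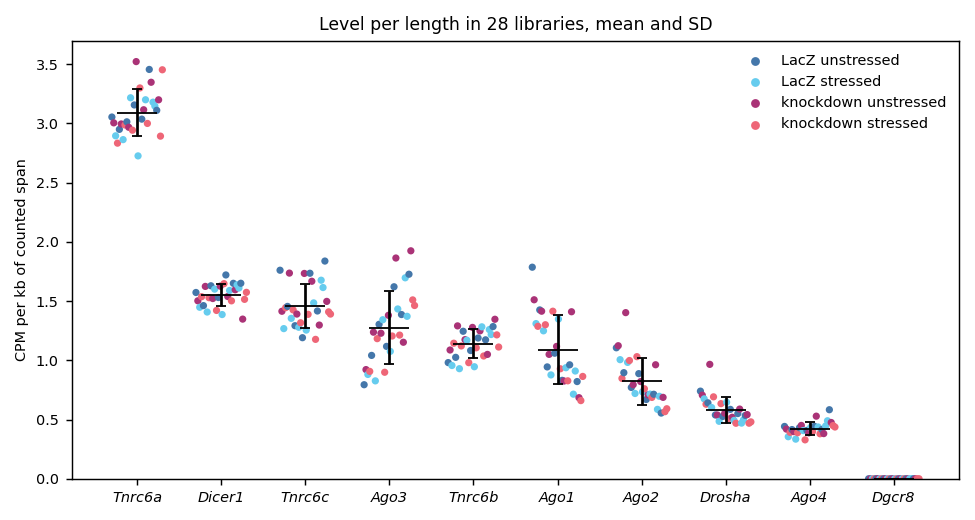
CPM per kilobase of counted gene span (vertical axis) for each gene (horizontal axis), with 1 point per library coloured by group, and the mean and SD of 28 libraries in black. Tnrc6a lies above every other gene, Ago1, Ago2 and Ago3 spread widely, and Dgcr8 lies at 0.

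Drosha (chr15:12824815-12935290) makes the first cut. It ranged over 58.1, 60.7 and 81.6 CPM (lowest, median and highest of 7) in the LacZ unstressed group and 51.8, 54.8 and 74.4 in the LacZ stressed group. In the knockdown groups it ranged over 57.3, 61.0 and 107 without stress and 51.7, 55.7 and 76.3 with stress. All 4 ranges overlapped, and 1 library, knockdown unstressed replicate 2, was above all others. Dicer1 (chr12:104687742-104751952), which makes the second cut, was the steadiest member, with 86.5 to 110.45 CPM over 28 libraries and a coefficient of variation of 5.90%.

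Dgcr8 (chr16:18253948-18289249), the RNA-binding partner that positions Drosha, could not be described. It was listed at 0 in 26 of 28 libraries, with 1 count in LacZ unstressed replicate 2 and 2 counts in knockdown unstressed replicate 2, and it failed the count filter. A count of 0 allows up to 3 counts, which is 0.0569 to 0.158 CPM across the libraries. Overlap with other genes took only 2.81% of its span. Dgcr8 and the 15 rows beside it in chr16:17980565-18348103, among them Dgcr6, Prodh, Rtn4r, Zdhhc8, Ranbp1, Trmt2a and Tango2, never exceeded 2 counts in any library. Of these 16 rows, 5 lie wholly inside other genes and could not be counted, and the neighbours were chosen after their values were seen. Dgcr8 was therefore not shown to be absent from this tissue, and why the whole stretch is at 0 was not tested. The same stretch holds a microRNA inside Dgcr8: the hairpin of Mir1306 (chr16:18284239-18284317, minus strand) lies within exons of 4 Dgcr8 transcripts, and within coding sequence of 2. Its mature strands are shown because this host message is itself a substrate for Drosha, with the seed, bases 2 to 8, in capitals (RefSeq, GRCm38.p6).
mmu-miR-1306-5p: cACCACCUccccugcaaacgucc
mmu-miR-1306-3p: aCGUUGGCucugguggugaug

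The Argonautes carry the guide RNA. Ago2 (chr15:73095844-73184840), the family member known for cutting targets, ranged over 48.4, 67.3 and 96.5 CPM in the LacZ unstressed group and 51.1, 62.8 and 87.7 in the LacZ stressed group. In the knockdown groups Ago2 ranged over 59.96, 71.6 and 122 CPM without stress and 49.4, 66.3 and 89.9 with stress. The highest Ago2 library was knockdown unstressed replicate 2, the same that was highest for Drosha. Ago1 and Ago3 lie beside each other on chromosome 4 (chr4:126435012-126468583 and chr4:126331704-126429556), with Ago4 next to them (chr4:126489541-126533472), all on the minus strand.

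Ago1 ranged over 27.5, 32.3 and 59.9 CPM in the LacZ unstressed group, 23.97, 31.5 and 45.2 in the LacZ stressed group, 22.97, 37.5 and 50.7 in the knockdown unstressed group and 22.1, 31.2 and 47.5 in the knockdown stressed group. Ago3 ranged over 77.7, 128 and 169 CPM in the same order in the first group, 80.9, 131 and 166 in the second, 90.2, 121 and 188 in the third and 88.0, 118 and 148 in the fourth. Within each group the highest library exceeded the lowest far more than the group medians differed. The library highest for Ago1, LacZ unstressed replicate 1, was the lowest for Ago3, and knockdown unstressed replicate 7 was highest for Ago3 and lowest of its group for Ago1. The ratio of Ago3 to Ago1 in CPM ran from 1.30 in the first of these libraries to 8.20 in the second, with a median of 3.69.

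As shares of the summed Argonaute level per kilobase, Ago3 made up 35.6% ± 9.03 (SD, n = 28), Ago1 29.97% ± 6.71, Ago2 22.6% ± 4.19 and Ago4 11.8% ± 1.63. Ago3 led in 17 libraries and Ago1 in 11. The group means of the Ago3 share ran only from 35.4% in the knockdown stressed group to 35.9% in the knockdown unstressed group, so group means differed far less than single libraries did. Ago4 was the lowest Argonaute at 14.2 to 25.2 CPM, with LacZ unstressed replicate 7 highest.

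The Tnrc6 proteins, also called GW182 proteins, link Argonaute to messenger RNA decay. Tnrc6b (chr15:80711319-80941086) had the most counts per gene at 213 to 309 CPM, and Tnrc6a held steady at 69.8 to 90.2 CPM with a coefficient of variation of 6.37%. Tnrc6c (chr11:117654289-117763439) ranged over 129.96, 159 and 201 CPM in the LacZ unstressed group and 137, 148 and 183 in the LacZ stressed group. In the knockdown groups Tnrc6c ranged over 142, 163 and 189 CPM without stress and 128, 152 and 158 with stress. The knockdown stressed libraries were bunched at the lower end, but their range overlapped that of every other group. As shares of the summed Tnrc6 level per kilobase, Tnrc6a made up 54.4% ± 2.52, Tnrc6c 25.6% ± 2.23 and Tnrc6b 20.01% ± 1.34 (SD, n = 28), a far steadier mix than that of the Argonautes.

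**Figure D2:**
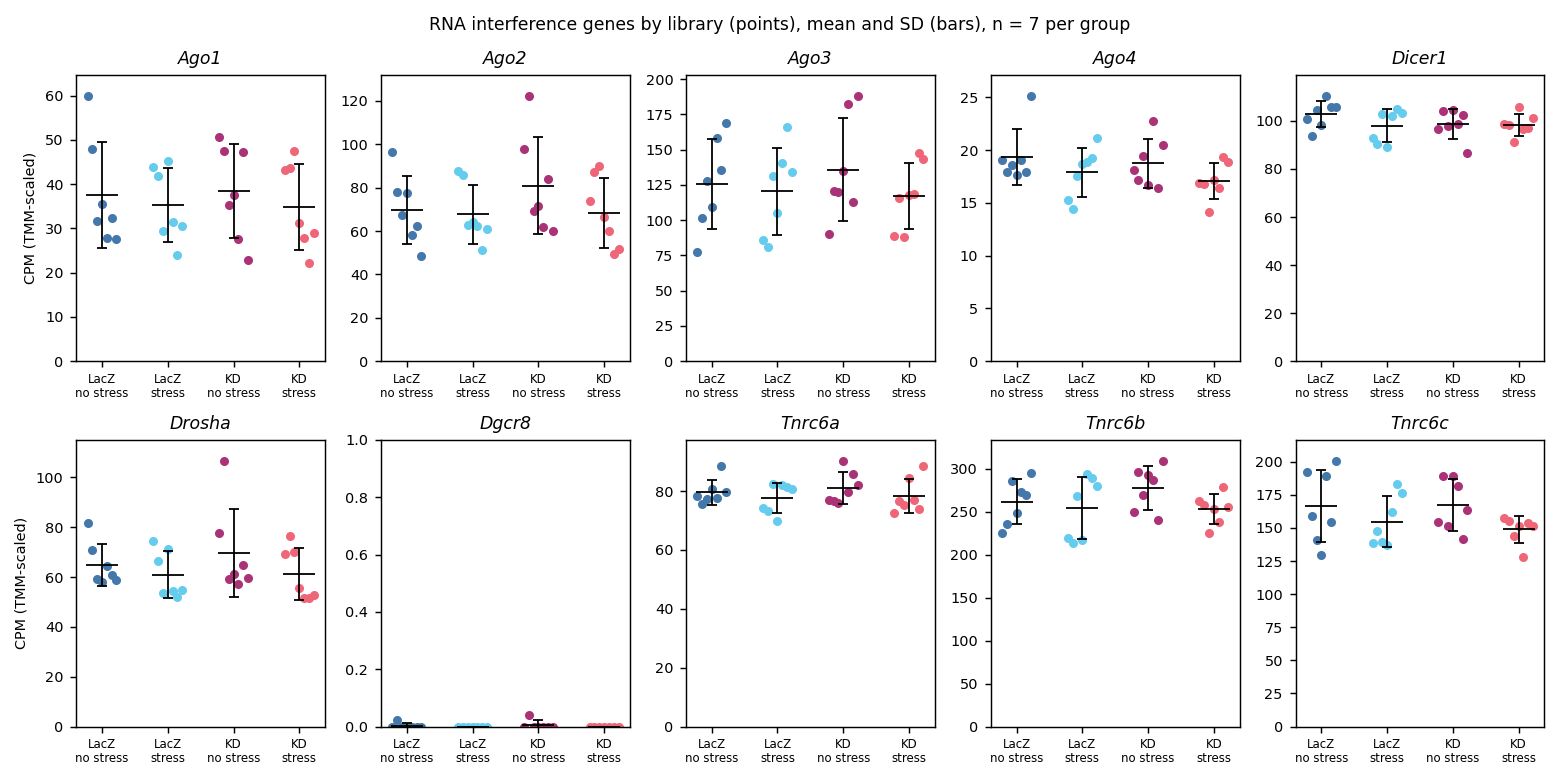
TMM-scaled CPM (vertical axes, starting at 0) of each gene in the 4 groups (horizontal axes), with 1 point per library and the mean and SD of 7 in black, where KD is the virus labelled as the Slit1 knockdown. The 4 groups overlap for every gene, Ago1 and Ago3 spread from 22.1 to 59.9 and from 77.7 to 188 CPM, and Dgcr8 is at or near 0.

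The knockdown label was compared with LacZ over 14 against 14 libraries. No difference was resolved for any member: 0 of 9 tested members were called by edgeR's quasi-likelihood test, against 0% of the 19171 genes tested. Ago2 had the largest difference, with a log2 fold change of 0.11 ± 0.13 (SE), followed in size by Ago4 at -0.06 ± 0.08 and Drosha at 0.05 ± 0.10. The log2 fold changes of the other members were 0.04 ± 0.07 for Tnrc6b, 0.03 ± 0.14 for Ago3, 0.02 ± 0.05 for Tnrc6a, 0.01 ± 0.15 for Ago1, -0.02 ± 0.08 for Tnrc6c and -0.03 ± 0.05 for Dicer1. The median was 0.02, against -0.02 over all genes. The approximate 95% interval was narrow for Dicer1, from -0.13 to 0.08, and wide for Ago1, from -0.30 to 0.32. At an unadjusted p under 0.05 edgeR found 0 of 9 members and 1.52% of all genes (291).

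Within unstressed mice, where 0% of genes were called, the members with the smallest p were Ago2 at 0.22 ± 0.18 and Tnrc6b at 0.09 ± 0.10 on the log2 scale. Within stressed mice, where 0% were called, they were Ago4 at -0.07 ± 0.11 and Tnrc6c at -0.06 ± 0.11. These differences were below or close to their standard errors. The knockdown unstressed replicate 2 library held both the highest Ago2 and the highest Drosha level, and without it the log2 fold changes for the knockdown label were 0.09 for Ago2 in unstressed mice, 0.05 for Ago2 averaged and -0.01 for Drosha averaged.

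Stress was compared with no stress over the same 28 libraries. All 9 tested members were lower on average after stress, none past the test: edgeR called 0 of 9 members and 0% of all genes. Tnrc6c had the smallest p, with a log2 fold change of -0.14 ± 0.08 (SE), an unadjusted edgeR p of 0.0853 and an adjusted p of 1.00, and 12 of 14 stressed libraries lay below the unstressed mean. The log2 fold changes were -0.14 ± 0.13 for Ago2, -0.14 ± 0.10 for Drosha, -0.14 ± 0.14 for Ago3, -0.12 ± 0.08 for Ago4, -0.12 ± 0.15 for Ago1, -0.09 ± 0.07 for Tnrc6b, -0.04 ± 0.05 for Tnrc6a and -0.04 ± 0.05 for Dicer1. The members' median was -0.12, against -0.01 over all genes, of which 8885 of 19171 were above 0. Single libraries moved these values by over 1.5 times: without knockdown unstressed replicate 2 they were -0.08 for Ago2 and -0.07 for Drosha, without knockdown unstressed replicate 7 -0.08 for Ago3, and without LacZ unstressed replicate 1 -0.03 for Ago1. In bulk tissue, fewer cells that express a gene and less RNA per cell cannot be told apart. At an unadjusted p under 0.05 edgeR found 0 of 9 members and 2.21% of all genes (424).

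With the LacZ virus, where 0% of genes were called, the smallest p among members belonged to Ago4 and Tnrc6c, both at -0.11 ± 0.11 on the log2 scale. With the knockdown virus, where 0% were called, Tnrc6c was at -0.17 ± 0.11, with 7 of 7 stressed libraries below the unstressed mean, and Ago2 at -0.25 ± 0.18. The interaction tests whether the stress effect differs between viruses, and it called 0% of genes. Its members of smallest p were Ago2 at -0.20 ± 0.25 and Tnrc6b at -0.10 ± 0.14. Without knockdown unstressed replicate 2, Ago2 was at -0.12 for stress under the knockdown virus and at -0.08 for the interaction.

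Standard errors were smaller with the library GC slope in the model. With the slope as a covariate, the stress log2 fold changes stayed almost where they were, at -0.11 ± 0.04 for Ago1, -0.12 ± 0.04 for Ago3, -0.14 ± 0.06 for Ago2, -0.14 ± 0.06 for Drosha, -0.12 ± 0.05 for Ago4, -0.09 ± 0.04 for Tnrc6b and -0.14 ± 0.07 for Tnrc6c. The unadjusted edgeR p of these 7 of 9 members ran from 0.0091 to 0.0477, where 7.59% of all genes were lower at that level. None was called, since the smallest adjusted p among the members was 0.416 for Ago1 and Ago3, and Dicer1 and Tnrc6a stayed at unadjusted p-values of 0.297 and 0.250. Without each library in turn in that fit, 4 to 7 members had an unadjusted p under 0.05, and all 9 stayed below 0, where 5.28% to 9.46% of all genes were lower at that level. The count was 4 without LacZ unstressed replicate 1 or 7, LacZ stressed replicate 2, knockdown unstressed replicate 7 or knockdown stressed replicate 3. Without the 3 libraries named above for bone, striatal and T cell markers, 5 of 9 did, where 11.8% of genes were lower. With those libraries left out, the smallest adjusted edgeR p of a member over all 7 comparisons was 0.137. The smallest unadjusted p among them belonged to Ago3, for stress under the knockdown virus. For the averaged knockdown comparison the same covariate left 0 of 9 members at an unadjusted p under 0.05, where 7.38% of all genes reached it.

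In the single comparisons with that covariate, 1 of 9 members had an unadjusted edgeR p under 0.05 for the knockdown label without stress, Ago2 at 0.22 ± 0.08 (SE), where 5.1% of genes did. The unadjusted p of Ago2 in that edgeR fit was 0.0105 and its adjusted p 0.917. For stress under the knockdown virus 5 of 9 members were lower at that level (Ago1, Ago2, Ago3, Drosha and Tnrc6b), where 5.41% of genes were. It was 0 of 9 for the knockdown label with stress, where 2.21% of genes reached it, for stress under LacZ, where 1.87% did, and for the interaction, where 0.882% did. None passed the adjusted threshold.

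**Figure D3:**
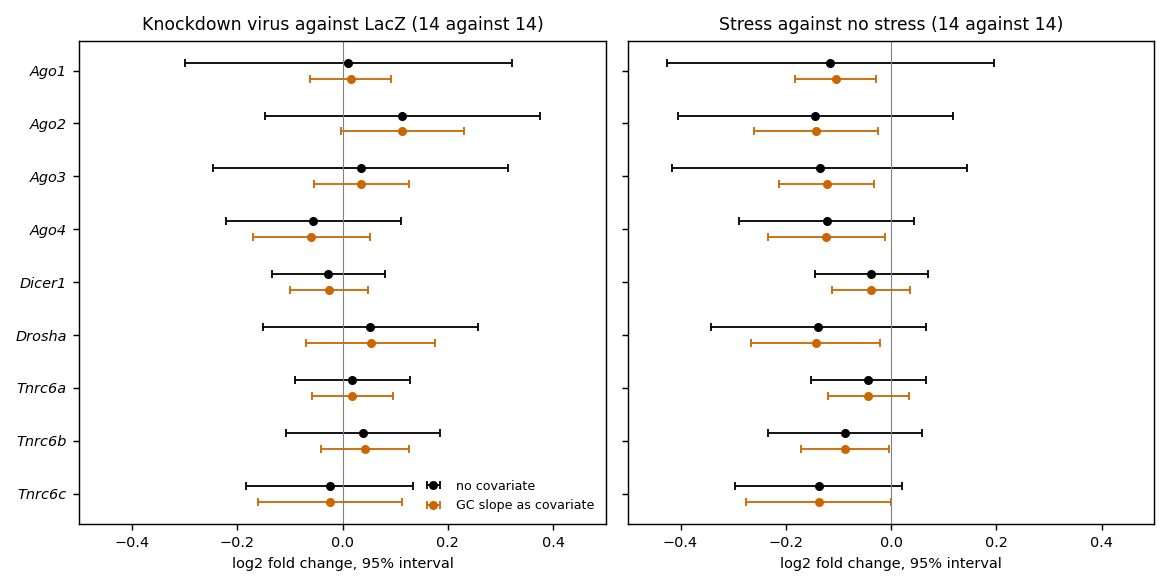
Log2 fold change with its approximate 95% interval (horizontal axes) for each tested gene (vertical axis), for the knockdown virus against LacZ and for stress against no stress, without and with the library GC slope as a covariate. Every stress value lies below 0, and the covariate narrows the intervals of Ago1 from -0.43 to 0.20 to -0.18 to -0.03.

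The relation of each member to the library GC slope was measured over 28 libraries, as 9 relations with permutation tests. Ago1 rose with the slope (Pearson's r = 0.968, Spearman's rho = 0.945, adjusted permutation p = 2.25e-05, near the smallest that 100000 draws can give), as did Ago2 (r = 0.853, rho = 0.905) and Drosha (r = 0.754, rho = 0.787). Ago3 fell with it (r = -0.938, rho = -0.938), as did Tnrc6b (r = -0.751, rho = -0.701) and Ago4 (r = -0.621, rho = -0.627, adjusted permutation p = 0.00024). Tnrc6a was weakly lower (r = -0.419, rho = -0.442, adjusted permutation p = 0.0344). Dicer1 (r = -0.317, rho = -0.379, adjusted permutation p = 0.115) and Tnrc6c (r = -0.204, rho = -0.217, adjusted permutation p = 0.299) did not pass. Without the 2 libraries farthest from the median slope r was 0.959 for Ago1, 0.861 for Ago2, 0.760 for Drosha, -0.918 for Ago3, -0.694 for Tnrc6b, -0.689 for Ago4, -0.429 for Tnrc6a, -0.635 for Dicer1 and -0.356 for Tnrc6c.

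Some cell type and mitochondrial signals moved along the same axis, and their part in these relations was not tested. As a description over the 28 libraries, r with the slope was 0.777 for summed microglia markers, -0.768 for astrocyte and -0.694 for interneuron markers, the largest in size of the marker lists. The other lists ran from -0.413 for striatal neuron to 0.603 for endothelial markers, with cortical excitatory neuron markers at 0.497. The mitochondrial share of counts correlated at -0.800 with Ago1 and 0.804 with Ago3.

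These relations were not particular to the RNA interference genes: over all 19171 tested genes the median size of r was 0.743, and 27.7% of genes were beyond 0.9. The transcripts of Ago1 and Ago3 differ in GC content, at 50.7% and 41.8%, while Tnrc6c at 50.9% showed almost no relation. Both promoters, by contrast, are rich in CpG, with 38 CpG in the 300 bases of Ago1 and 37 in those of Ago3, against a median of 7 over 32851 RefSeq promoters of that length, of which 4.95% and 5.58% hold as many. A second listed Ago1 start (chr4:126468582-126468881) has 31 CpG, a number 10.56% of promoters reach, and the one printed belongs to the start that matches the counted gene span. They are shown because these neighbours went opposite ways across libraries, in the direction of transcription with each CG in capitals, a motif that reads the same on both strands (RefSeq, GRCm38.p6, 250 bases before to 50 after the start, minus strand).
Ago1 promoter (chr4:126468534-126468833): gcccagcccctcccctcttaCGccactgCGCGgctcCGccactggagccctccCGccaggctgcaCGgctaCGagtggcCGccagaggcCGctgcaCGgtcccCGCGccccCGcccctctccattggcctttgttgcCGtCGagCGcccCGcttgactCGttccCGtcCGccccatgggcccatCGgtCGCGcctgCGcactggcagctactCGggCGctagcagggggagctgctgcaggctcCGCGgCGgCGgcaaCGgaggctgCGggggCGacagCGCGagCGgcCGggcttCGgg
Ago3 promoter (chr4:126429493-126429792): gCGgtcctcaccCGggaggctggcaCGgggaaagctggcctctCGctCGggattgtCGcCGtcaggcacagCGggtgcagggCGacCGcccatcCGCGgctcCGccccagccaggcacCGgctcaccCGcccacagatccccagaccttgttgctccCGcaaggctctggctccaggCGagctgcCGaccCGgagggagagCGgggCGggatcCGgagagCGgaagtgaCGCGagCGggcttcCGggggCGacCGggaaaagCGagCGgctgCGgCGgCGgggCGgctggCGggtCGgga

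**Figure D4:**
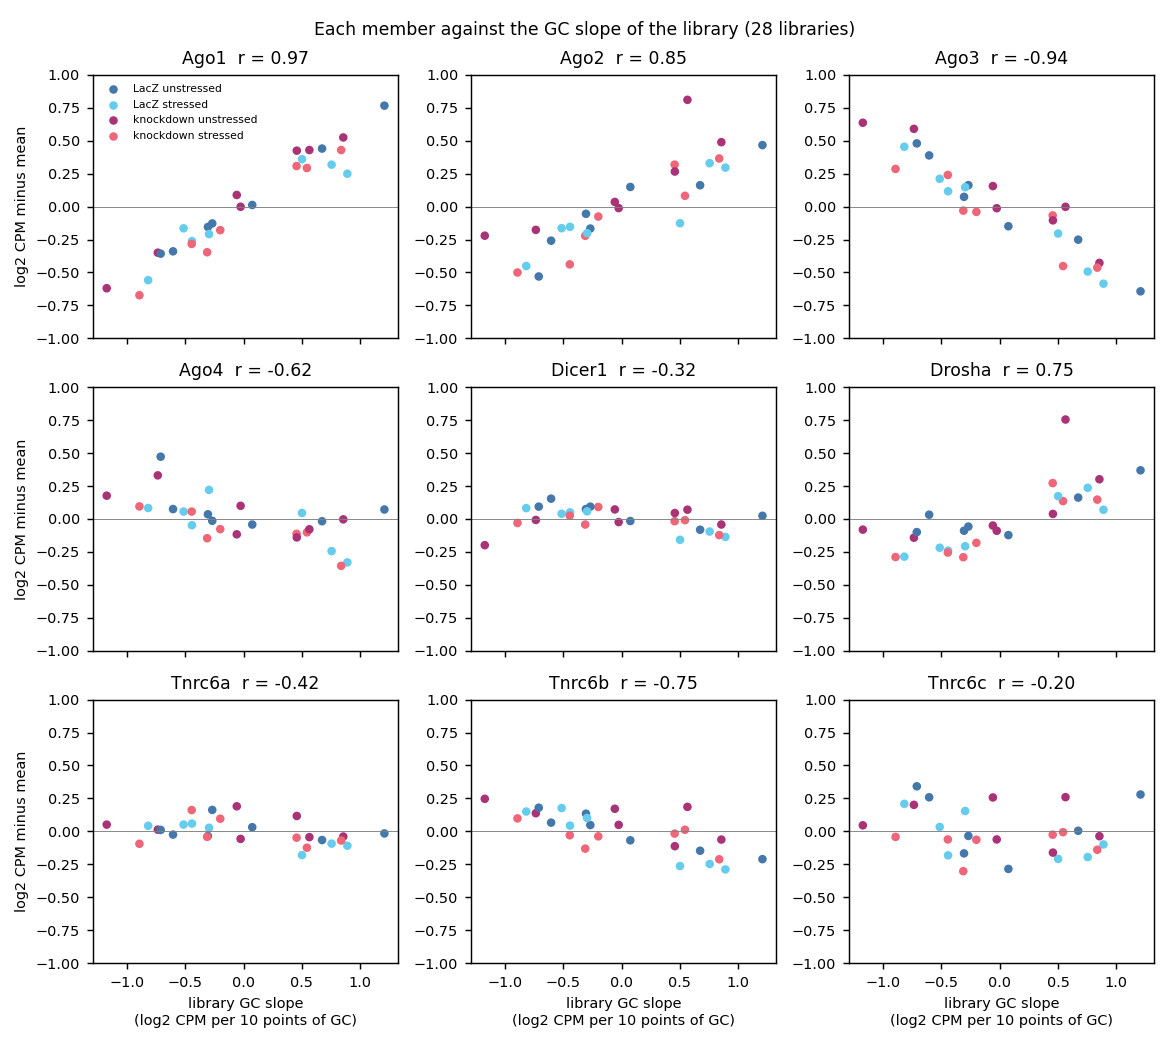
Log2 CPM of each tested gene minus its mean (vertical axes) against the GC slope of the library (horizontal axes, log2 CPM per 10 percentage points of GC), with 1 point per library coloured by group. Ago1, Ago2 and Drosha climb with the slope, Ago3, Ago4 and Tnrc6b descend, and the 4 groups are mixed along it.

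Pairs of members followed the same axis. With group means removed, log2 CPM over the 28 libraries correlated at r = 0.883 between Ago1 and Ago2, 0.851 between Ago2 and Drosha, 0.807 between Ago1 and Drosha, and -0.909 between Ago1 and Ago3. With the slope removed as well, r was 0.009 between Ago1 and Ago2, 0.515 between Ago1 and Ago3, 0.514 between Ago2 and Drosha and 0.236 between Ago1 and Drosha. These are descriptions, since every pair rests on the same libraries, which differ in this slope. The pairs of Dicer1 with Tnrc6b (0.545, then 0.486), Dicer1 with Tnrc6a (0.551, then 0.477) and Tnrc6b with Tnrc6c (0.493, then 0.543) moved little when the slope was removed.

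**Figure D5:**
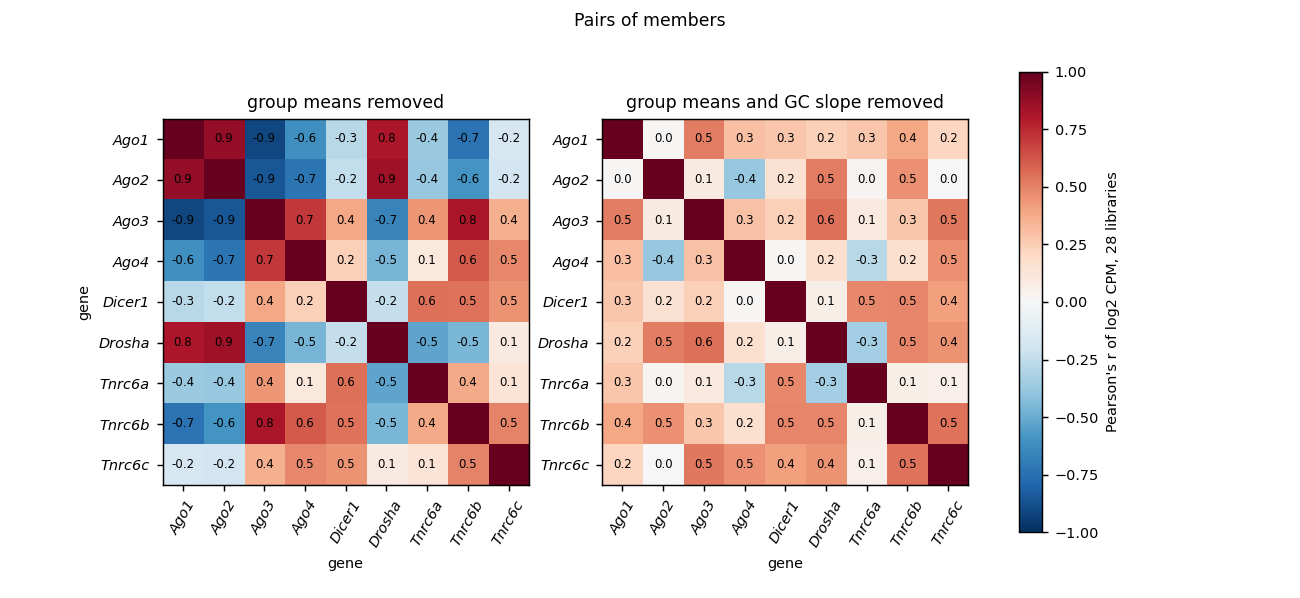
Pearson's r of log2 CPM over 28 libraries for each pair of tested genes (both axes are genes), with group means removed on the left and the library GC slope removed as well on the right. The strong opposite blocks on the left, such as -0.9 for Ago1 and Ago3, are gone on the right, where that pair is at 0.5.

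By the same measure the genes most like each member across the 28 libraries, with group means removed, were Gtf3c1, Rab26 and Sugp2 for Ago1 (r from 0.983 to 0.985), Slc7a1, Zmiz1 and Ranbp10 for Ago2 (0.965 to 0.977) and Tmem161b, Hdx and Tmem135 for Ago3 (0.984 to 0.986). They were Med12l, Gm43570 and Reck for Ago4 (0.865 to 0.874), Trio, Ctdspl and Klhl3 for Drosha (0.956 to 0.964) and Ccl25, Gm44790 and Usp8 for Dicer1 (0.774 to 0.811). For the scaffolds they were Ccdc14, Cnmd and Gm16638 for Tnrc6a (0.815 to 0.828), Sec24a, Crebbp and Fbxl17 for Tnrc6b (0.920 to 0.939) and Nipa1, 4933424G06Rik and Dtnb for Tnrc6c (0.806 to 0.831). With the slope removed too, Trio stayed first for Drosha (0.908) and Slc7a1 first for Ago2 (0.870).

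The wider pathway was read from a list of 67 other genes, of which 64 were tested. Lin28a, which blocks processing of let-7 precursors, reached at most 7 counts, and Cnot9 and Eif4enif1 lie wholly under other genes and were listed at 0. For the knockdown label edgeR called 0 of the 64 genes in either direction, with 28 above 0, 36 below and a median log2 fold change of -0.01. Over all genes 0% were called, 8461 of 19171 were above 0 and the median was -0.02. The smallest p-values belonged to Limd1, a LIM protein that helps Argonaute silence targets, at 0.22 ± 0.13 (SE), Snd1, a Tudor-domain nuclease, at 0.15 ± 0.10 and Pabpc1, the cytoplasmic poly(A)-binding protein, at 0.13 ± 0.10.

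For stress edgeR called 0 of the 64 genes in either direction, with 23 above 0, 41 below and a median of -0.02. Over all genes 0% were called, 8885 of 19171 were above 0 and the median was -0.01. By step, 2 of 7 primary processing partners and 2 of 7 export and dicing partners were above 0. So were 5 of 9 genes of Argonaute loading and turnover, 4 of 12 deadenylation genes and 4 of 11 decapping and decay genes. Of the rest, 1 of 5 tailing and trimming genes, 3 of 10 Argonaute-associated RNA-binding proteins and 2 of 3 Piwi genes were above 0. The medians of these steps lay between -0.05 for tailing and trimming and 0.03 for the Piwi genes. The smallest p-values belonged to Piwil1 at -0.50 ± 0.28, Piwil4 at 0.75 ± 0.41 and Adarb2, a brain-expressed relative of the RNA-editing enzymes, at -0.35 ± 0.19. The Piwi genes, which guard the germ line, were near the detection limit, at 0.151 to 1.54 CPM for Piwil1 and 0.0453 to 1.20 for Piwil4, whereas Adarb2 ran from 132 to 567 CPM and its groups overlapped. With the GC slope as a covariate, stress left 31 of the 64 genes above 0 and 33 below, with a median of -0.0025. In that fit 9742 of all 19171 genes were above 0.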

How the data were processed

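The 28 libraries came from punches of female mouse prefrontal cortex. The authors deposited raw counts for every gene, counting by featureCounts 1.6.2 any fragment inside a whole gene of Ensembl release 90 (GRCm38), with read pairs counted as fragments and no strand option, per the file headers. HISAT2 and DESeq2 were also named, per the submitters' processing notes. Counts over whole spans include introns, and fragments in overlapping genes were counted for neither gene.

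Genes were kept by filterByExpr, normalised by TMM factors and compared by edgeR 4.0.16 (robust glmQLFit with glmQLFTest) in R 4.3.3 over all 28 libraries, with 1 coefficient per group. A call needed an adjusted p under 0.05 (Benjamini-Hochberg over 19171 genes). The fit was checked on simulated counts that held no GC slope and larger changes than those of the members. That check therefore covers neither the slope nor changes as small as the members'. Log2 CPM used a prior count of 2, and permutation tests used 100000 draws. Alternatives were RLE factors, 2 other count filters, DESeq2 1.42.0, voomWithQualityWeights in limma 3.58.1, a GC covariate, subsets of groups, a looser threshold and omitted libraries. Omitting 3 libraries of other marker content, combining that or the omission of each single library with the GC covariate, and removing the GC slope from pairwise correlations were chosen after seeing the data.

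The members and gene lists were chosen with earlier results of these data known. All members were named, with the 2 of smallest p in each single comparison, the 3 other pathway genes of smallest p in each averaged one, the 3 most similar genes of each member, and Slit1 as the label check. Library lanes were not given in the sources used here, and replicate numbers were assigned in accession order and pair no samples.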

Additional observations from a re-analysis of the deposited data

Results flagged for a closer look

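Of 36 sets of 7 libraries (9 genes in 4 groups), 3 held 1 library far from the other 6, by Dixon's test at its 95% critical value, where chance alone gives about 1 in 20. Ago4 was at 25.2 CPM in LacZ unstressed replicate 7, the next library being at 19.1. Drosha was at 107 CPM in knockdown unstressed replicate 2, the next being at 77.8. Tnrc6a was at 88.5 CPM in LacZ unstressed replicate 6, the next being at 80.8. Dgcr8 passed the same test by construction, since any single count among zeros does: it was at 0.0237 CPM in LacZ unstressed replicate 2 and 0.0413 CPM in knockdown unstressed replicate 2, from 1 and 2 counts where the other libraries of the group were at 0.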

How the results depend on the processing

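No gene and no member was called under any alternative in the comparisons it was run for, which were all 7 except for fits of only the groups compared (4) and single omissions with the GC slope (stress alone). Counts at an unadjusted p under 0.05 varied more. For stress 424 genes became 1086 with no count filter, 1279 with voomWithQualityWeights, 1954 with the GC slope, 1132 without the 3 libraries of other marker content and 3734 with both of the last. Leaving out single libraries gave 287 to 728 genes, over 1.5 times the count without LacZ unstressed replicate 4, LacZ stressed replicate 4 or knockdown unstressed replicate 6. It gave 0 to 1 members, the 1 being Tnrc6c without LacZ unstressed replicate 4 or LacZ stressed replicate 6. The members among them were 1 with no filter (Dgcr8), 2 with voomWithQualityWeights, 7 with the GC slope and 5 with both. For the knockdown label 291 genes became 1011, 1224 and 1415 under the first 3 of these settings, 1039 with both, and 225 to 402 without single libraries. Small differences changed sign: with voomWithQualityWeights, log2 fold changes for the knockdown label were -0.0931 for Ago3, -0.0499 for Tnrc6b, 0.00285 for Tnrc6c, -0.0162 for Pabpc1 and 0.249 for Slit1, and those for stress under LacZ were 0.0166 for Ago4 and 0.0679 for Tnrc6c. Without the 3 libraries they were -0.0124 for Ago3 and -0.00958 for Tnrc6a, the latter -0.00807 with the GC slope as well. Without single libraries the knockdown value ran from -0.0406 to 0.0821 for Ago1, -0.0152 to 0.0807 for Ago3, -0.0147 to 0.0799 for Drosha and -0.196 to 0.158 for Slit1. Tnrc6a correlated with the first principal component at -0.392 (adjusted permutation p = 0.0511), past the threshold for the slope only. With voomWithQualityWeights the members' median for stress was -0.047, against -0.12 in the main fit, with 0 of 9 members above 0. Over all genes that median was -0.017. For stress under LacZ 4 of 9 members were above 0 with voomWithQualityWeights, with a median of -0.00055, against 0 of 9 in the main fit. Levels under plain and RLE scaling moved by less than 1 SD. The causes of these shifts were not tested. No paired analysis was possible because the labels give no number shared between groups, and numbers given in accession order pair no samples.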
